A study of Homo sapiens with 12 samples.

Results

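HK-2 cells treated with iohexol were compared directly with HK-2 cells treated with cisplatin. HK-2 is an established, immortalized line from the human renal proximal tubule, the nephron segment that takes up many drugs from filtrate and blood. The comparison used 6 of the 12 RNA-seq samples of the series, 3 per drug, chosen by their labels. Iohexol, an iodinated contrast medium, was given at 75 mg I/mL, and cisplatin, a platinum compound that binds DNA, at 5 μM, each for 48 h. The 3 control samples, labelled as given water, stayed out of the test and served only to tell which drug had moved a gene. A single dose of each drug was used, so every difference below belongs to these doses, and the labels do not say whether the samples of a group came from separate cultures. The p-values therefore measure the spread between these samples, which may be technical.

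Contrast media are hyperosmolar solutions, and kidney cells answer a hyperosmolar medium by taking up or making small organic osmolytes through a few transporters and enzymes. Cisplatin crosslinks DNA, and such adducts halt RNA polymerase on its way through a gene, which is met by DNA repair and by p53. Metallothioneins are small proteins that bind zinc and other metals and are switched on by a zinc-sensing factor. Early response genes such as the FOS and EGR families are transcribed within minutes of a signal or stress and have short genes and short-lived mRNA.

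The total count per sample was 14057282, 15071433 and 14650252 with iohexol, 14645178, 14466712 and 15057150 with cisplatin, and 14235479, 16589507 and 15574044 in the control group. Levels are given as CPM, a share of the counts of a library, after TMM normalization. At these totals 3 counts, the fewest treated as detected, stood for 0.184 to 0.228 CPM, a floor that covers counting error only. Iohexol replicate 3 stood apart from its group. Its counts differed from those of iohexol replicates 1 and 2 with chi-square values of 17.8 and 16.9 for each degree of freedom, whereas replicates 1 and 2 gave 3.85 and the cisplatin pairs 2.32 to 2.66. Results are therefore also given without this library where it mattered.

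Some defining markers of the proximal tubule were weak in all 9 samples, while 10 of 16 proximal tubule and epithelial markers passed the filter on low counts. LRP2, the megalin receptor, was at 0 CPM in 7 of the 9 samples and at most 0.0695 CPM in the others. SLC34A1, the phosphate transporter, and AQP1, the water channel, reached at most 0.693 and 0.767 CPM, and CDH1, the epithelial cadherin, at most 0.517 CPM. PAX8, a transcription factor of the kidney epithelium, was at 675, 710 and 547 CPM with iohexol against 136, 135 and 138 CPM with cisplatin, a log2 fold change of 2.24 ± 0.10 (SE, n = 3 per group, adjusted p = 2.44e-09 by edgeR's quasi-likelihood test).

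Iohexol and cisplatin left different transcriptomes, and the larger set of genes was higher with iohexol. Of 16230 genes tested, 2817 (17.4%) were differentially expressed genes (DEGs), defined by a Benjamini-Hochberg adjusted p under 0.05 in edgeR's quasi-likelihood test and a log2 fold change beyond 1 or -1. Among them 1805 (11.1% of the genes tested) were higher with iohexol and 1012 (6.24%) were higher with cisplatin. Without the fold threshold 9001 genes (55.5%) passed. The samples of the drugs did not overlap in 10136 genes (62.5%), and in 2787 of the 2817 DEGs (98.9%). Without iohexol replicate 3 the DEGs numbered 2951, of which 1910 were higher with iohexol and 1041 higher with cisplatin.

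The sets differed in kind. DEGs higher with iohexol were protein-coding in 87% and had a median genomic span, from first to last base of the gene, of 82.4 kb, while DEGs higher with cisplatin were protein-coding in 60.3% and had a median span of 7.42 kb. Over all genes tested the median span was 26.5 kb, and 13146 of the 16230 genes were protein-coding. A fold change above 4 was reached by 534 DEGs higher with iohexol and 171 higher with cisplatin. Scaling by total counts alone, in place of TMM, shifted the median over all genes by -0.14 on the log2 scale and the split to 1507 and 1364, so that 52.5% of the DEGs were then higher with iohexol in place of 64.1%.

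**Figure D1:**
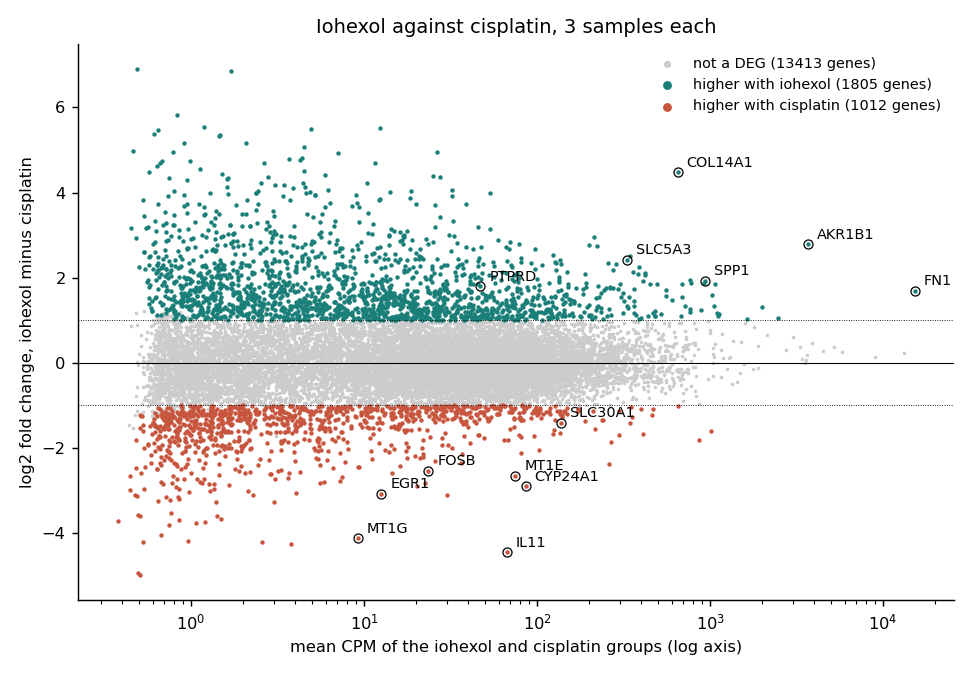
Log2 fold change of iohexol over cisplatin for each of 16230 genes tested (vertical axis) against the mean CPM of the 2 groups (horizontal log axis). Points above the upper dotted line can be DEGs higher with iohexol (1805 genes) and points under the lower one DEGs higher with cisplatin (1012 genes); COL14A1, AKR1B1 and FN1 are abundant genes on the iohexol side and IL11, MT1E and CYP24A1 on the cisplatin side.

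The control samples told which drug had moved. Each DEG was placed by the share of the difference between the drugs that lay between iohexol and control, with a share within 0.25 of 0 taken as a move of cisplatin and one within 0.25 of 1 as a move of iohexol. Tested against control on their own, 826 of 15657 genes (5.28%) were DEGs with iohexol and 2594 of 15876 (16.3%) with cisplatin, and both tests share the control samples. Of the 1805 DEGs higher with iohexol, 769 (42.6%) had been moved by cisplatin, which means that cisplatin lay below control and iohexol near it. Another 657 (36.4%) had moved apart, with iohexol above and cisplatin below control, and 203 (11.2%) had been moved by iohexol. Of the 1012 DEGs higher with cisplatin, 474 (46.8%) had been moved by cisplatin, 308 (30.4%) had moved apart and 60 (5.93%) had been moved by iohexol. With total counts alone these 60 became 39, and wider limits on the share, at 1/3 and 2/3, gave 590 moved by cisplatin, 209 apart and 82 moved by iohexol. The remaining DEGs moved the same way with both drugs. The mean Euclidean distance between samples, over log2 CPM of all genes tested, was 114.7 between the drugs, 79.16 between iohexol and control, and 107.4 between cisplatin and control, against 54.73 within iohexol and 44.14 within cisplatin. The exact permutation test of the split into drugs gave p = 0.1, the smallest that 3 against 3 samples can give.

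Genomic span ordered the difference between the drugs. Among 539 tested genes over 300 kb, 339 (62.9%) were DEGs higher with iohexol and 10 (1.86%) were higher with cisplatin. Among 4475 genes under 10 kb the shares were 5.9% and 13.3%. The median log2 fold change of iohexol over cisplatin was -0.25 under 10 kb, -0.16 from 10 to 30 kb, 0.06 from 30 to 100 kb, 0.46 from 100 to 300 kb and 1.37 over 300 kb. In 442 of the 539 longest genes (82%) every iohexol sample lay above every cisplatin sample, against 31.3% of all genes tested. The share of DEGs higher with iohexol among genes over 300 kb was 65.1% for protein-coding genes alone and lay between 60.3% and 63.9% with single samples omitted. Sorting the genes by exonic length instead gave 18.7% among genes with over 8 kb of exons.

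It was cisplatin that had moved the long genes. Relative to the mean of the control samples, the median gene over 300 kb was at -1.22, -1.32 and -1.28 (log2 CPM difference) in the cisplatin samples and at -0.05, 0.00 and 0.09 in the iohexol samples. The medians of the control samples, each set against the mean of the other two, were 0.08, -0.06 and -0.04, so that the iohexol samples lay within or close to that spread. For genes under 10 kb the cisplatin samples were at 0.30, 0.31 and 0.32 and the iohexol samples at 0.13, 0.11 and -0.03. Of the 339 long genes higher with iohexol, 219 had been moved by cisplatin, 68 had moved apart and 12 had been moved by iohexol. CPM are shares of a library, so a higher share of short genes and a lower share of long genes cannot be told apart as changes in RNA per cell.

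**Figure D2:**
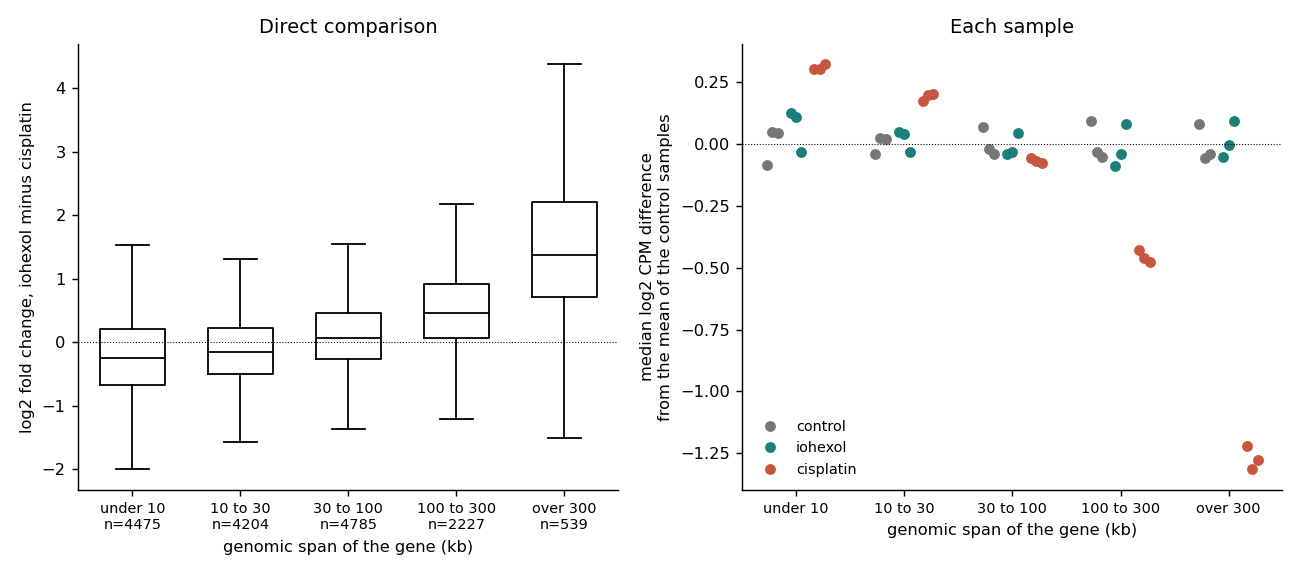
Left, log2 fold change of iohexol over cisplatin in 5 bins of genomic span in kb (box, quartiles; line, median; whiskers, 1.5 times the box height at most). Right, for each sample the median difference in log2 CPM from the mean of the control samples, with control samples set against the other two; the cisplatin samples fall to about -1.3 over 300 kb and the iohexol samples stay near 0.

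Single long genes showed the difference between the drugs sample by sample. PTPRD, a receptor phosphatase on chromosome 9 that was the longest DEG at 2298.5 kb, was at 64.4, 73.5 and 80.4 CPM with iohexol, 20.5, 22.6 and 19.8 CPM with cisplatin, and 92.7, 93.4 and 83.9 CPM in the control group. It differed 3.47-fold between the drugs (adjusted p = 3.05e-08, edgeR). PARD3B, a relative of a cell polarity protein, was at 46.8, 48.4 and 47.5 CPM with iohexol and at 2.33, 2.37 and 2.15 CPM with cisplatin, a 20.8-fold difference. Control samples held 41.3, 39.6 and 43.5 CPM of PARD3B, close to iohexol. NRXN3, a synaptic adhesion protein, had 8.27, 8.25 and 10 CPM with iohexol and 1.2, 0.959 and 1.47 CPM with cisplatin, with 8.28, 8.52 and 9.79 CPM in the control group. EPHB1, a receptor for ephrins, had 49.7, 54.7 and 53.2 CPM with iohexol and 3.09, 2.17 and 2.39 CPM with cisplatin. Control samples held 24.9, 27.8 and 29.1 CPM of EPHB1, so iohexol also lay above control (log2 fold change 0.95 ± 0.11 SE, adjusted p = 7.63e-05, edgeR). PTPRD and NRXN3, named for their span, did not overlap between the drugs, and PARD3B and EPHB1 were named by a rule that asked for this.

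The other long genes were rarer. EYS was at 1.51, 1.88 and 3.68 CPM with iohexol and at 0.378, 0.192 and 0.552 CPM with cisplatin, and ROBO2, an axon guidance receptor, at 0.939 to 1.73 CPM against 0 to 0.189 CPM, at or under the floor. EYS and ROBO2 also lay above control with iohexol, by log2 fold changes of 1.32 and 1.57. EYS shares 1.03% of its exonic bases with PHF3, whose CPM was 67.4 times that of EYS. MACROD2, whose samples overlapped, had a log2 fold change of 1.09 ± 0.40 (adjusted p = 0.035, edgeR) and lost its call when iohexol replicate 1 or any cisplatin replicate was left out, with limma-voom and with total counts alone. A few long genes went the other way. NAV3, a neuron navigator protein of 888.4 kb, was at 10.8, 11.1 and 13.6 CPM with iohexol and at 46.5, 46.7 and 41.1 CPM with cisplatin, and PCDH9, a protocadherin, at 2.09, 1.54 and 3.68 CPM against 9.14, 9.97 and 8.16 CPM. DLG2, TEX41 and AC013652.1 were also called higher with cisplatin, at means of 1.05, 1.05 and 0.731 CPM with cisplatin and of 0.395, 0.396 and 0.300 CPM with iohexol. The calls of TEX41 and AC013652.1 were lost, among others, with DESeq2 and when single samples were left out (for TEX41 iohexol replicate 2 or 3 or cisplatin replicate 1 or 2; for AC013652.1 any sample but iohexol replicate 3).

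The DEGs with the smallest p on the iohexol side were led by COL14A1, a collagen that binds to the surface of fibrils. It was at 1230, 1240 and 1255 CPM with iohexol, 60.7, 53.6 and 53 CPM with cisplatin, and 199, 184 and 186 CPM in the control group. The difference between the drugs was 22.3-fold (log2 fold change 4.48 ± 0.08 SE, adjusted p = 3.85e-12, edgeR), and against control it rose with iohexol and fell with cisplatin. The same opposite moves were measured for SNX29, a sorting nexin (61.5, 63.5 and 58.2 CPM against 3.34, 3.9 and 3.68 CPM), HTRA1, a secreted protease (103, 95.5 and 103 CPM against 6.68, 5.11 and 7.24 CPM), and SEMA4D, a membrane semaphorin (211, 219 and 202 CPM against 37.9, 35.9 and 35 CPM). MAL2, a protein of transport to the apical membrane, was at 386, 345 and 423 CPM against 58.5, 57.3 and 56.1 CPM. ST6GAL1, a sialyltransferase, was at 71.3, 79 and 65.9 CPM against 4.79, 6.07 and 5.52 CPM and had been moved by cisplatin. APP, the amyloid precursor protein, was at 1474, 1476 and 1383 CPM against 395, 392 and 388 CPM. These genes were named by a rule that asked for samples without overlap, so their separation is a description.

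The DEGs with the smallest p on the cisplatin side were led by IL11. IL11, a cytokine of the interleukin-6 family on chromosome 19, was at 6.54, 6.11 and 4.87 CPM with iohexol, 127, 130 and 127 CPM with cisplatin, and 14.7, 20 and 19.8 CPM in the control group. It differed 21.9-fold between the drugs (log2 fold change -4.45 ± 0.11 SE, adjusted p = 6.79e-11, edgeR), having risen with cisplatin and fallen with iohexol. CYP24A1, the enzyme that inactivates vitamin D, was at 17.8, 22.1 and 21 CPM against 148, 156 and 150 CPM, with 76.9, 70.4 and 67.7 CPM in the control group. TM4SF1, a membrane protein, TGM2, a transglutaminase that crosslinks proteins, TFPI2, a protease inhibitor of the matrix, and ODC1, the first enzyme of polyamine synthesis, likewise lay above control with cisplatin and below it with iohexol. Their folds between the drugs were 5.22, 3.53, 3.64 and 3.22. PHLDA2 was at 60.1, 56.8 and 58.4 CPM against 188, 187 and 186 CPM and had been moved by cisplatin. SHISA2 was at 12.9, 11.5 and 11.4 CPM against 61, 60.2 and 62.2 CPM and had been moved by iohexol.

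**Figure D3:**
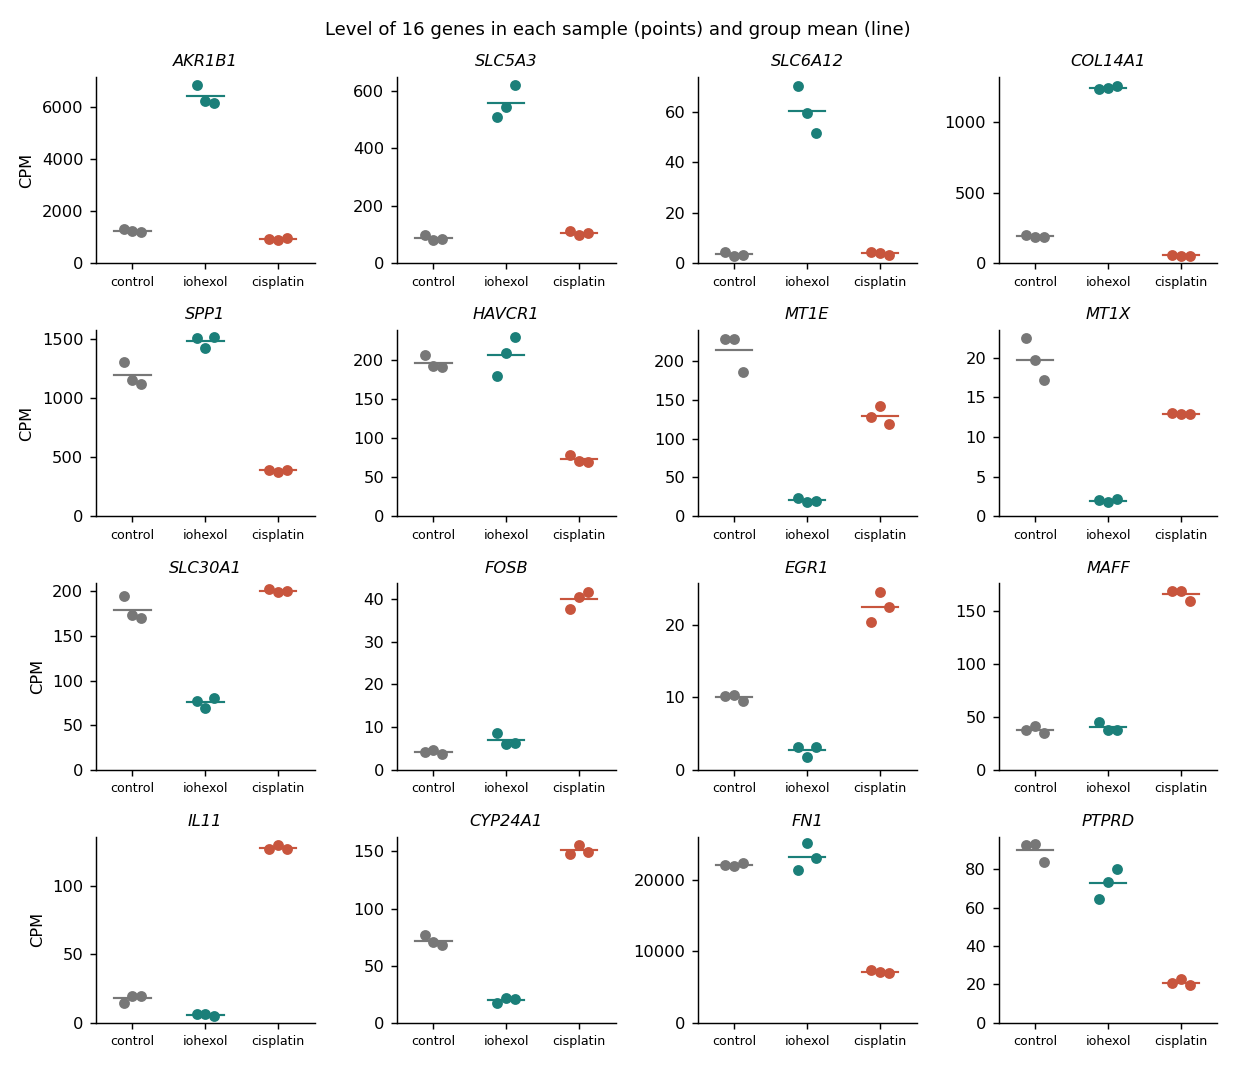
CPM of 16 genes in each sample of the control, iohexol and cisplatin groups (points) with the group mean (line), each panel on its own linear axis from 0. In every panel the iohexol and cisplatin samples are apart; the osmolyte genes AKR1B1, SLC5A3 and SLC6A12 stand high with iohexol alone, the metallothioneins MT1E and MT1X low with iohexol, and FOSB and MAFF high with cisplatin.

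Genes that handle osmolytes set iohexol apart. Of 16 members tested, 5 (31.2%) were DEGs higher with iohexol and 1 (6.25%) was higher with cisplatin, against 11.1% and 6.24% of all genes tested. The median log2 fold change was 0.76, against -0.01 over all genes tested. AKR1B1, aldose reductase, which makes sorbitol, was at 6847, 6246 and 6152 CPM with iohexol, 929, 902 and 966 CPM with cisplatin, and 1325, 1231 and 1215 CPM in the control group. The gene spans 16.9 kb on chromosome 7, and 15.7% of the 31-base sequences of its transcripts also occur in other genes. SLC5A3, the myo-inositol transporter, was at 509, 544 and 621 CPM against 111, 98.1 and 104 CPM. SLC6A12, the betaine transporter, was at 70.5, 59.6 and 51.6 CPM against 4.6, 4.16 and 3.31 CPM, a 15.1-fold difference. In these 3 genes the cisplatin samples lay near the control samples, so that iohexol had moved them. S100A4 and PNPLA6, the latter an esterase that makes the osmolyte glycerophosphocholine, were also higher with iohexol, with log2 fold changes of 2.44 ± 0.17 and 1.51 ± 0.09 (SE). NFAT5, the factor that drives osmolyte genes, was at 179, 209 and 288 CPM against 142, 129 and 116 CPM. It differed by 0.81 ± 0.14 (SE, adjusted p = 4.01e-04, edgeR) and did not reach the fold threshold. The taurine transporter SLC6A6 differed by 0.95 ± 0.10, with iohexol at 154, 162 and 132 CPM near the control group and cisplatin lower. SGK1, a kinase that acts on sodium transport, was higher with cisplatin, at 77.8, 78.7 and 97.2 CPM with iohexol and 182, 184 and 189 CPM with cisplatin.

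Metallothioneins were lower with iohexol. Of 11 tested members of a list of metallothioneins and zinc transporters, 7 (63.6%) were DEGs higher with cisplatin and none was higher with iohexol, against 6.24% and 11.1% of all genes tested, with a median log2 fold change of -1.41. MT1E was at 23.5, 18.1 and 20 CPM with iohexol, 127, 142 and 119 CPM with cisplatin, and 228, 228 and 186 CPM in the control group (log2 fold change between the drugs -2.65 ± 0.11 SE, adjusted p = 2.23e-09, edgeR). MT1G was at 0.863, 1.14 and 0.973 CPM with iohexol and at 17.2, 19.4 and 15.6 CPM with cisplatin, a 17.3-fold difference. MT1X was at 2.01, 1.81 and 2.15 CPM against 13, 12.9 and 12.9 CPM. MT1F and MT1M were lower with iohexol by -2.08 ± 0.13 and -1.84 ± 0.24 on the log2 scale. MT1A, whose call was lost without cisplatin replicate 2, differed by -1.06 ± 0.27. The other called member was SLC30A1, the exporter of zinc from the cell, at 76.9, 69.1 and 80.2 CPM against 202, 199 and 200 CPM. MT2A fell with both drugs and differed between them by only -0.37 ± 0.08, with 280, 228 and 256 CPM against 326, 347 and 318 CPM and 1198, 1109 and 937 CPM in the control group. The zinc importers SLC39A10 and SLC39A14 were on the other side, with log2 fold changes of 0.81 and 0.96, and MTF1, the zinc-sensing factor, differed by -0.22 (adjusted p = 0.0715, edgeR). The metallothionein genes are near copies of each other. Between 17.9% (MT1E) and 33.4% (MT1X) of the 31-base sequences of MT1A, MT1E, MT1G, MT1M and MT1X occur in other genes, so the split of reads among them is uncertain.

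Early response genes set cisplatin apart. Of 37 members tested, 16 (43.2%) were DEGs higher with cisplatin and 1 (2.7%) was higher with iohexol, against 6.24% and 11.1% of all genes tested, and the median log2 fold change was -0.91. SERTAD1, a cell cycle regulator, was at 7.7, 5.77 and 5.35 CPM with iohexol and 57.2, 51.4 and 52.6 CPM with cisplatin, and 8.66, 10.3 and 9.05 CPM in the control group. MAFF, a small MAF transcription factor, was at 45.1, 37.9 and 38 CPM against 169, 169 and 159 CPM. FOSB was at 8.56, 5.97 and 6.19 CPM against 37.7, 40.5 and 41.7 CPM, and FOS at 4.03, 1.95 and 2.57 CPM against 16.4, 15.6 and 14.8 CPM. NR4A1 and NR4A3, orphan nuclear receptors, differed 4.71-fold and 5.4-fold, and ATF3, a stress-induced factor, 2.56-fold. For these 7 genes cisplatin was the drug further from control, with log2 fold changes of cisplatin over control from 1.62 (ATF3) to 3.24 (FOSB).

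Another 3 early genes moved in opposite directions or with iohexol. EGR1 was at 3.09, 1.81 and 3.13 CPM with iohexol, 20.4, 24.6 and 22.5 CPM with cisplatin, and 10.2, 10.3 and 9.45 CPM in the control group, so that it rose with cisplatin and fell with iohexol. FOSL1, an AP-1 subunit, was at 45.6, 46.5 and 48.6 CPM against 98.3, 106 and 97.2 CPM, and JUNB at 73.9, 72.3 and 42.5 CPM against 133, 135 and 141 CPM. FOSL1 and JUNB lay near control with cisplatin. The call of JUNB was lost without iohexol replicate 3. KLF6 was the member higher with iohexol, at 369, 362 and 371 CPM against 172, 166 and 169 CPM, a call that was lost when samples were scaled by total counts alone. JUN, IER3 and MYC differed by less than the fold threshold, with log2 fold changes of -0.46, -0.15 and 0.29. The members of the list were short, with a median span of 6 kb. After subtracting the median of protein-coding genes of the same span bin, the median of the early genes was -0.64, that of the metallothionein list -1.14 and that of the osmolyte list 0.81, a calculation chosen after the data were seen.

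Upstream sequence was read for called members of these lists from RefSeq promoters on GRCh38.p14, taking the 250 bases before the start of the gene. The table held such a sequence for 10905 of the genes tested. The letters TGCNCNC, the core of the metal response element that the zinc-sensing factor binds, were searched on both strands. They were in both called members of the metallothionein list that had a promoter in the table, SLC30A1 and MT1X, in 48.4% of all 27305 promoters and in 56.4% of those of genes tested. The letters TGACGTCA, the cyclic AMP response element, were in 2 of the 13 called early genes that had a promoter, MAFF and DUSP1, in 1.77% of all promoters and in 2.77% of those of genes tested. The letters TGANTCA, the AP-1 site, which do not occur inside TGACGTCA, were in none of these 13, in 6.6% of all promoters and in 4.0% of those of genes tested. The letters TGGAAA, the core of the tonicity element bound by NFAT5, were in none of the 5 (of 6) called osmolyte genes that had a promoter. They were in 18.3% of all promoters and in 13.4% of those of genes tested. Such elements can lie farther from the start than the window reached. The promoters of the member with the smallest p in the metallothionein list and in the early gene list that held the letters are shown 5′ to 3′ in the direction of transcription, with the match in capitals. SLC30A1 lies at chr1:211579162-211579411 on the minus strand, with the match starting at position -49, and MAFF at chr22:38201744-38201993 on the plus strand, with the match starting at position -54. A match of letters is a description and does not show binding.
SLC30A1: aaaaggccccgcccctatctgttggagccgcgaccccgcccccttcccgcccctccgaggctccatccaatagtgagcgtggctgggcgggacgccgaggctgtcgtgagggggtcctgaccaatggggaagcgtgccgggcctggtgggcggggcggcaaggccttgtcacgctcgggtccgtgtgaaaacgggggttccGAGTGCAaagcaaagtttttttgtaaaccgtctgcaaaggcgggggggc
MAFF: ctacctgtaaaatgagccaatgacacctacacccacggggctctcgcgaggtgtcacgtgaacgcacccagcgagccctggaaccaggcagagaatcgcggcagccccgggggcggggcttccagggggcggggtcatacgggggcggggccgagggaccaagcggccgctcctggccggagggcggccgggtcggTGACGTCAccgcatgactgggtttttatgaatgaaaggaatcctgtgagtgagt

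Among 22 collagen genes tested, 10 (45.5%) were higher with iohexol and 1 (4.55%) with cisplatin, against 11.1% and 6.24% of all genes tested, and 11 were not called (median log2 fold change 0.68). Their median span was 139 kb, and after subtracting the median of their span bins the median of the list was 0.37. Apart from COL14A1, which moved apart, and COL24A1, which lay above control with both drugs, the called collagens on the iohexol side had been moved by cisplatin (COL4A5, COL18A1) or lay below control with both drugs and further with cisplatin. COL4A1 and COL4A2, the main chains of basement membrane collagen, were at 961, 1023 and 799 CPM and 1139, 1194 and 730 CPM with iohexol and at 432, 452 and 425 CPM and 400, 405 and 406 CPM with cisplatin, with iohexol replicate 3 the lowest of its group in both. COL4A1 lost its call when samples were scaled by total counts alone. COL1A1, the chain of fibrillar collagen, was the exception, at 26.1, 25.1 and 22.7 CPM against 52.4, 47.6 and 51.7 CPM, and its call was lost without iohexol replicate 3.

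Fibronectin differed through a fall with cisplatin. FN1 was at 21351, 25151 and 23107 CPM with iohexol, 7433, 7119 and 6929 CPM with cisplatin, and 22062, 21962 and 22394 CPM in the control group (log2 fold change between the drugs 1.70 ± 0.07 SE, adjusted p = 1.6e-09, edgeR). It held 2.29% ± 0.19 (SD, n = 3) of all counts with iohexol and 0.775% ± 0.028 (SD, n = 3) with cisplatin (exact permutation p = 0.1, two-sided, the smallest possible). In the list of fibronectin and matricellular genes, 7 of 23 (30.4%) were higher with iohexol and 3 (13%) with cisplatin, against 11.1% and 6.24% of all genes tested, and 13 were not called. TNC, tenascin C, rose with iohexol and fell with cisplatin, at 208, 228 and 211 CPM against 43, 42.8 and 40.9 CPM. LOXL2, which crosslinks collagen, and VCAN, versican, fell with cisplatin and differed by 2.07 ± 0.11 and 1.47 ± 0.10 on the log2 scale. On the cisplatin side, CTGF, a matricellular growth factor, was at 210, 185 and 220 CPM against 506, 482 and 510 CPM, and THBS2 at 58, 59.6 and 54.7 CPM against 135, 130 and 125 CPM. Both were lower with iohexol and higher with cisplatin than in the control group.

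Of 12 matrix proteases and inhibitors, 6 (50%) were higher with iohexol and 2 (16.7%) with cisplatin, against 11.1% and 6.24% of all genes tested, and 4 were not called. MMP16 was at 56.7, 55.9 and 64.2 CPM against 7.31, 6.78 and 8.16 CPM, and PLAU, urokinase, at 1116, 1059 and 909 CPM against 344, 341 and 376 CPM. The urokinase receptor PLAUR went the other way, at 24.2, 21.4 and 21.4 CPM against 76.4, 76.6 and 76.3 CPM. MMP7 was at 12.5, 12.3 and 12.5 CPM against 28.5, 26.7 and 31.1 CPM, below the control group with both drugs. Cadherin and tight junction genes had 8 of 21 members (38.1%) higher with iohexol and none higher with cisplatin, against 11.1% and 6.24% of all genes tested (median 0.52). CDH16, the kidney cadherin, was at 69.5, 62.5 and 48.7 CPM with iohexol, 9.07, 8.12 and 8.47 CPM with cisplatin, and 9.95, 12.9 and 12.4 CPM in the control group. CDH6, a cadherin of the developing proximal tubule, fell with both drugs, to 160, 184 and 190 CPM with iohexol and 66.7, 64.9 and 68.3 CPM with cisplatin, from 565, 532 and 517 CPM.

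Among 17 tested markers of tubular injury, 6 (35.3%) were higher with iohexol and none was higher with cisplatin, against 11.1% and 6.24% of all genes tested, with a median log2 fold change of 0.09. SPP1, osteopontin, was at 1507, 1427 and 1516 CPM with iohexol and 396, 377 and 395 CPM with cisplatin. HAVCR1, kidney injury molecule 1, was at 179, 209 and 230 CPM with iohexol, 78.4, 70.7 and 69.8 CPM with cisplatin, and 206, 192 and 191 CPM in the control group. SPP1 and HAVCR1 fell with cisplatin against control. LCN2, which encodes the urinary marker NGAL, was at 11.2, 9.93 and 8.06 CPM against 3.34, 2.75 and 2.39 CPM, and rose with iohexol from 2.2, 2.39 and 2.97 CPM. GDF15, a stress cytokine, was at 515, 510 and 395 CPM with iohexol, 188, 184 and 194 CPM with cisplatin, and 106, 102 and 113 CPM in the control group. PROM1, a marker of scattered tubular cells, was at 22.9, 20.3 and 25.9 CPM against 1.13, 1.85 and 1.78 CPM, and TIMP2 at 530, 533 and 530 CPM against 198, 192 and 191 CPM.

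Of 20 cytokine and chemokine genes tested, 7 (35%) were higher with iohexol, against 11.1% of all genes tested, IL11 alone was higher with cisplatin and 12 were not called (median log2 fold change 0.14). The count on the cisplatin side was 2 without iohexol replicate 1 or 2 or with total counts alone. IL6 was at 123, 130 and 127 CPM with iohexol, 48.2, 46.3 and 47.7 CPM with cisplatin, and 77.9, 59.3 and 68.2 CPM in the control group, the reverse of IL11, which signals through the same co-receptor. CXCL2, a neutrophil chemokine, was at 65.9, 66.7 and 68.5 CPM against 27.5, 28.9 and 34.5 CPM, with 25.9% of its 31-base sequences in other genes. CCL20 fell with both drugs, to 10.4, 10.9 and 11.7 CPM with iohexol and 4.79, 5.37 and 4.54 CPM with cisplatin. Of 22 genes of the NF-kB and Toll-like receptor pathways, 3 were higher with iohexol (NFKBIA, TLR2 and TLR3) and 1 with cisplatin (MYD88, the adapter of these receptors, at 22.4, 24.5 and 25.2 CPM against 63.1, 67.8 and 63 CPM). These are 13.6% and 4.55% of the list, near the shares over all genes. A count of 2 on the cisplatin side was found without iohexol replicate 1, without cisplatin replicate 2 or with total counts alone. By the adjusted p alone 5 of the 22 were higher with iohexol and 9 with cisplatin, against 28.5% and 26.9% of all genes tested. Among 34 interferon-stimulated genes 5 (14.7%) were higher with iohexol and 3 (8.82%) with cisplatin, also near the shares over all genes. The counts were 5 and 1 without iohexol replicate 3, and 4 and 5 with samples scaled by total counts alone.

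TLR4, AOC3, IRF4 and TNFAIP6 were picked by the study from comparisons of these samples with control, so they are no independent set. None was a DEG between the drugs. TLR4, a receptor for bacterial lipids, was at 0.863, 1.01 and 1.11 CPM with iohexol and 1.07, 0.575 and 1.41 CPM with cisplatin, with overlapping samples (log2 fold change -0.04 ± 0.39 SE, adjusted p = 0.942, edgeR). AOC3, a vascular adhesion protein, was at 1.94, 1.21 and 1.74 CPM against 2.39, 3 and 3.01 CPM (log2 fold change -0.78 ± 0.27 SE, adjusted p = 0.0264, edgeR), without overlap but inside the fold threshold. TNFAIP6 was at 3.38, 3.56 and 2.29 CPM against 4.6, 4.54 and 4.24 CPM (log2 fold change -0.53 ± 0.21 SE, adjusted p = 0.051, edgeR). IRF4 did not pass the filter on low counts, at 0.719, 0.738 and 0.626 CPM against 0.441, 0.384 and 0.43 CPM.

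Of 11 EGFR ligands and receptors tested, 2 were higher with iohexol and 2 with cisplatin, against 11.1% and 6.24% of all genes tested, and 7 were not called (median log2 fold change 0.08). EGFR, the receptor for epidermal growth factor, was at 564, 644 and 643 CPM with iohexol, 154, 146 and 137 CPM with cisplatin, and 534, 531 and 551 CPM in the control group, and the gene spans 193 kb. The ligands HBEGF and AREG were the members higher with cisplatin, at 64.1, 56.4 and 68.4 CPM against 192, 185 and 185 CPM and at 78.4, 79.3 and 87.4 CPM against 187, 187 and 194 CPM. HBEGF lay above control with cisplatin and below it with iohexol, and AREG fell with iohexol. Among 33 genes of TGF-beta signaling 4 (12.1%) were higher with iohexol and 3 (9.09%) with cisplatin, close to the 11.1% and 6.24% of all genes tested, or 2 and 4 with samples scaled by total counts alone. TGFBR3 was at 16.8, 15.3 and 18.5 CPM against 2.46, 2.11 and 2.46 CPM, and BMP2 at 21.1, 20.5 and 21.1 CPM against 57.1, 57.2 and 57.3 CPM. Notch genes had 1 of 16 (6.25%) higher with iohexol, LFNG, and 4 (25%) with cisplatin, the pathway targets HES1, HES4, HEY1 and HEYL, against 11.1% and 6.24% of all genes tested. HES1 was at 26.7, 21.3 and 21.7 CPM against 52.2, 49.1 and 56.3 CPM and had been moved by iohexol. The call of HES4 was lost without iohexol replicate 3, and that of HEYL without iohexol replicate 1 or cisplatin replicate 1 or 3.

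Of 29 genes that ATF4 controls or that act in amino acid stress, 10 (34.5%) were higher with iohexol, against 11.1% of all genes tested, 1 was higher with cisplatin and 18 were not called (median 0.69). SLC7A11, the cystine transporter, was at 59.3, 51.3 and 66.8 CPM against 12, 12.3 and 11.7 CPM, and DDIT4, an inhibitor of mTOR, at 239, 241 and 164 CPM against 50.3, 52.8 and 55.5 CPM. For DDIT4, 30.4% of the 31-base sequences occur in other genes. The enzymes of serine synthesis PHGDH, PSAT1 and PSPH differed by 1.16 ± 0.12, 1.11 ± 0.08 and 1.58 ± 0.09 on the log2 scale. PSAT1 lost its call when samples were scaled by total counts alone. ATF5 was the exception, at 21.4, 22.3 and 20.4 CPM against 47, 47.6 and 48.6 CPM, but shares 21.2% of its exonic bases with NUP62. Cholesterol synthesis had 7 of 27 members (25.9%) higher with iohexol and none with cisplatin, against 11.1% and 6.24% of all genes tested, and 20 not called (median 0.54). Its regulator SREBF2 was at 342, 350 and 303 CPM against 140, 134 and 135 CPM, and MSMO1 at 173, 158 and 205 CPM against 61.2, 59.7 and 63.5 CPM.

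Glycolysis and hypoxia genes had 6 of 35 members (17.1%) higher with iohexol and none higher with cisplatin, against 11.1% and 6.24% of all genes tested, and 29 not called (median 0.64). HIF1A, the oxygen-regulated transcription factor, was at 1131, 1060 and 1452 CPM with iohexol, 344, 330 and 324 CPM with cisplatin, and 674, 551 and 554 CPM in the control group. LDHA, lactate dehydrogenase, was at 1534, 1441 and 1579 CPM against 704, 710 and 712 CPM, and ENO1, an enolase, at 3565, 3374 and 3063 CPM against 1585, 1619 and 1605 CPM. SLC2A1, the glucose transporter, was at 676, 713 and 582 CPM against 301, 308 and 311 CPM. LDHA, ENO1 and SLC2A1 lost their calls with samples scaled by total counts alone, which left 3 of the 6 on the iohexol side and called 2 members higher with cisplatin. NRF2 targets had 5 of 27 (18.5%) higher with iohexol and 2 (7.41%) with cisplatin, against 11.1% and 6.24% of all genes tested. FTH1, the ferritin heavy chain, was at 2938, 3011 and 2620 CPM against 1166, 1091 and 1213 CPM, with 67.6% of its 31-base sequences in other genes. OSGIN1 was on the cisplatin side, at 8.2, 9.46 and 6.12 CPM against 22.2, 23.7 and 24.7 CPM.

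Among 32 p53 targets 2 (6.25%) were higher with iohexol and 4 (12.5%) with cisplatin, against 11.1% and 6.24% of all genes tested, with a median of 0.02. CDKN1A, the p53-induced inhibitor of the cell cycle, was at 78.1, 84.5 and 60.2 CPM with iohexol, 127, 144 and 144 CPM with cisplatin, and 40, 49.4 and 51.8 CPM in the control group, a log2 fold change of -0.90 ± 0.11 between the drugs (SE, adjusted p = 2.69e-05, edgeR), inside the fold threshold. TP53I3 was at 7.7, 8.86 and 5.28 CPM against 26.3, 30.8 and 28.8 CPM, and GADD45A at 67, 68.4 and 53.3 CPM against 137, 143 and 145 CPM. MDM2, the inhibitor of p53, overlapped between the drugs with a log2 fold change of 0.02 ± 0.09 (SE, adjusted p = 0.873, edgeR). Of 43 genes of crosslink and excision repair only FANCB (2.33%) was called, higher with cisplatin, and not without iohexol replicate 1 or cisplatin replicate 1. By the adjusted p alone, 20 repair genes were higher with cisplatin and 7 with iohexol, and over all genes tested 26.9% and 28.5% were. None of 47 mitosis genes was called, by edgeR with adjusted or unadjusted p or by DESeq2, with a median of -0.23, and 22 of them passed the adjusted p alone on the cisplatin side and 1 on the iohexol side. Of 46 replication genes 1 (2.17%) was higher with cisplatin, CCNE2, which shares 37% of its exonic bases with INTS8. This count was 5 without iohexol replicate 3 or with total counts alone, 2 without cisplatin replicate 1 and 0 without iohexol replicate 2. By the adjusted p alone, 19 replication genes were higher with cisplatin and 5 with iohexol. On the iohexol side 1 was called without iohexol replicate 1 or 2 or cisplatin replicate 3.

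**Figure D4:**
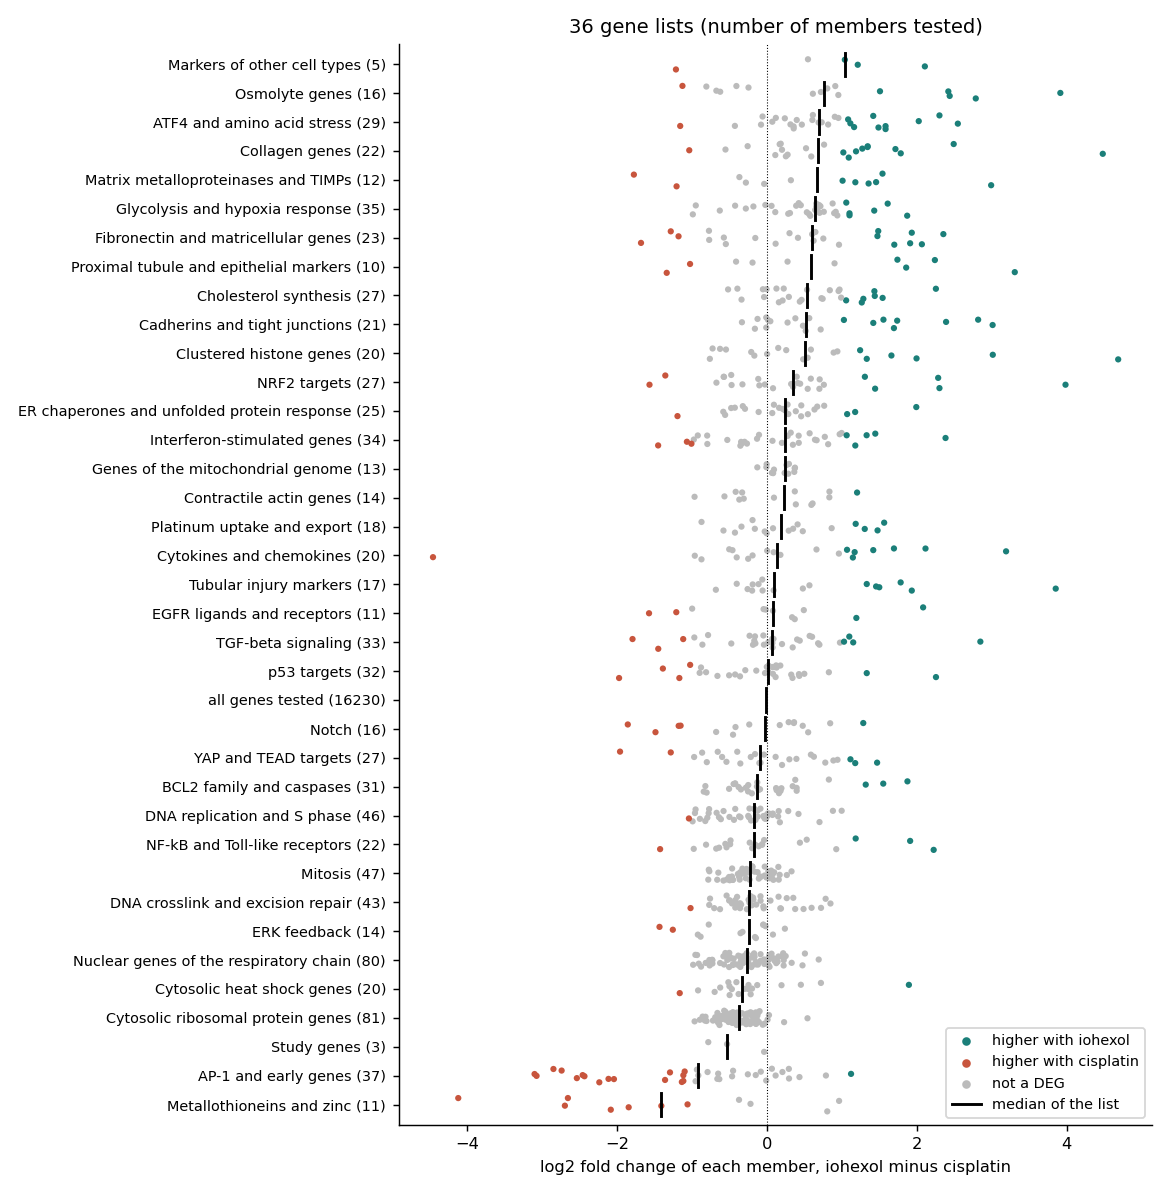
Log2 fold change of iohexol over cisplatin for each tested member (points) of 36 gene lists, with the number tested in brackets, sorted by the list's median (black bar); colours mark DEGs. Metallothioneins and early genes have the lowest medians (-1.41 and -0.91), and the bar for all genes tested lies at -0.01.

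Large protein complexes shifted by less than the threshold. Of 81 ribosomal protein genes none was a DEG, but 56 passed the adjusted p on the cisplatin side and 1 on the iohexol side, with a median of -0.37. Of all genes tested 26.9% and 28.5% did so. Their summed share of the counts was 2.67% ± 0.27 with iohexol, 3.67% ± 0.08 with cisplatin and 3.51% ± 0.12 in the control group (SD, n = 3 each; exact permutation p = 0.1 between the drugs, two-sided, the smallest possible). The 80 nuclear genes of the respiratory chain had a median of -0.26 and no DEG (37 passed the adjusted p on the cisplatin side and 5 on the iohexol side), and the 13 genes of the mitochondrial genome a median of 0.24 and no DEG (7 passed the adjusted p on the iohexol side and 0 on the cisplatin side). These counts of 0 by edgeR were also 0 with the unadjusted p and with DESeq2, and 1 respiratory chain gene was called with limma-voom, higher with cisplatin. With samples scaled by total counts alone, 2 ribosomal protein genes and 5 respiratory chain genes were called higher with cisplatin. After subtracting the median of their span bins, the list medians were -0.16 (ribosomal), -0.14 (respiratory chain) and 0.51 (mitochondrial genome). With total counts alone the median of the mitochondrial genome was 0.10. Its genes held 4.58% ± 0.45 of the counts with iohexol and 4.39% ± 0.09 with cisplatin (SD, n = 3 each, exact permutation p = 0.8, two-sided). Iohexol replicate 3 held 5.1%, and replicates 1 and 2 held 4.33% and 4.32%, inside the cisplatin range of 4.29% to 4.46%. Clustered histone genes, whose main transcripts lack a poly(A) tail and are thus mostly lost in poly(A) selection, had 20 members tested and 6 (30%) higher with iohexol, against 11.1% of all genes tested, or 3 where at least 10 counts were asked of every sample. HIST1H2AC was at 24.7, 29.3 and 20.9 CPM with iohexol, 2.77, 2.43 and 4.05 CPM with cisplatin, and 5.09, 4.2 and 4.86 CPM in the control group. The list as a whole rose with both drugs, with median log2 fold changes over control of 1.16 with iohexol and 0.70 with cisplatin. Against control, 10 members were DEGs above it with iohexol and 7 with cisplatin, and 0 were below it with either. Over all genes tested, 630 of 15657 were above control with iohexol and 1210 of 15876 with cisplatin.

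Of 10 tested proximal tubule and epithelial markers, 4 (40%) were higher with iohexol and 2 (20%) with cisplatin, against 11.1% and 6.24% of all genes tested. EPCAM, an adhesion molecule of epithelia, was at 124, 121 and 123 CPM with iohexol and 35, 37.1 and 38.2 CPM with cisplatin. KRT8 and KRT18, the keratin pair of simple epithelia, were higher with cisplatin, at 480, 434 and 378 CPM against 858, 880 and 892 CPM and at 147, 132 and 123 CPM against 332, 342 and 342 CPM. The call of KRT8 was lost without iohexol replicate 3, and the keratins share sequence with other genes (36.3% and 44.9% of their 31-base sequences). CDH2, the cadherin of these cells, differed by 0.28 ± 0.08, inside the threshold. Markers of other cell types summed to 91, 93 and 104 CPM with iohexol and 62.8, 64 and 63.6 CPM with cisplatin, nearly all of it LUM, lumican of stromal cells (78.3, 78.8 and 91.2 CPM against 55.8, 56.8 and 57.6 CPM). Of the 12 markers 5 could be tested, of which 3 (60%) were DEGs higher with iohexol and 1 (20%) was higher with cisplatin, against 11.1% and 6.24% of all genes tested, with a median log2 fold change of 1.04. DCN, decorin of stromal cells, was at 6.04, 7.11 and 6.33 CPM with iohexol and 2.21, 3.58 and 2.64 CPM with cisplatin, and PECAM1 of endothelium at 4.17, 3.96 and 3.75 CPM against 1.95, 2.05 and 1.78 CPM. SLC12A3 of the distal tubule was at 1.8, 1.74 and 1.95 CPM against 0.756, 0.448 and 0.0614 CPM. PDGFRB, a pericyte receptor, was called higher with cisplatin at 0.216, 1.07 and 0.487 CPM against 1.89, 1.02 and 1.29 CPM, with overlapping samples, and lost the call with DESeq2 and without iohexol replicate 1 or 3 or cisplatin replicate 1 or 3. The part of other cell types in the results above was not tested. UMOD of the thick limb, CDH5 of endothelium, PTPRC of leukocytes and CD68 of macrophages reached at most 0.203 CPM in any sample, and VWF at most 0.452 CPM. In bulk RNA, fewer cells of a type and less RNA per cell cannot be told apart.

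Platinum uptake and export genes had 4 of 18 members (22.2%) higher with iohexol, against 11.1% of all genes tested, among them ATP7A and ATP7B, copper pumps, at 24.2, 24.1 and 28.2 CPM against 11.3, 10.4 and 9.33 CPM and at 12.7, 11.7 and 10.9 CPM against 5.1, 4.6 and 5.83 CPM, and none higher with cisplatin. ATP7A shares 0.888% of its exonic bases with PGK1, whose CPM was 40.1 times that of ATP7A. Among 31 BCL2 family and caspase genes 3 (9.68%) were higher with iohexol, close to the 11.1% of all genes tested, and none with cisplatin (1 without any single iohexol replicate or cisplatin replicate 3). By the adjusted p alone 8 were higher with iohexol and 11 with cisplatin, against 28.5% and 26.9% of all genes tested. BCL2, which blocks apoptosis and spans 197 kb, was at 56.2, 57 and 56.7 CPM against 19.1, 19.4 and 19.5 CPM. Among 25 ER chaperone genes 3 (12%) were higher with iohexol and 1 (4%) with cisplatin, close to the 11.1% and 6.24% of all genes tested. They were led by EIF2AK3, the kinase PERK, at 123, 131 and 122 CPM against 31.8, 31.4 and 31.5 CPM, with 20.3% of its 31-base sequences in other genes. Among 20 cytosolic heat shock genes 1 (5%) was called in each direction, against 11.1% and 6.24% of all genes tested, while by the adjusted p alone 15 were higher with cisplatin and 3 with iohexol, against 26.9% and 28.5% of all genes (median -0.34). The count on the cisplatin side was 2 without iohexol replicate 1 or with total counts alone. CRYAB, a small heat shock protein, was higher with iohexol (230, 217 and 184 CPM against 51.7, 59.8 and 58.8 CPM) and DNAJB4 with cisplatin. ERK feedback genes had 2 of 14 members (14.3%) higher with cisplatin (4 with samples scaled by total counts alone), YAP and TEAD targets 3 of 27 (11.1%) higher with iohexol and 2 (7.41%) with cisplatin, and contractile actin genes 1 of 14 (7.14%) higher with iohexol and none with cisplatin. The shares of the YAP and contractile lists were close to or under the 11.1% and 6.24% of all genes tested.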

How the data were processed

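RNA of HK-2 cells was poly(A)-selected and sequenced after an NEBNext Ultra library preparation, at Novogene. The authors deposited whole-number read counts per gene, not normalized, for 58735 genes in 12 samples. The submitters' processing notes name CASAVA 1.8, fastp, HISAT2 2.0.5, featureCounts 1.5.0-p3 and DESeq2 1.20.0. The strand setting is not given in the sources used here, so overlapping genes on opposite strands may share reads. The gene positions in the table are those of GENCODE on GRCh38.

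From these counts, 3 iohexol samples were compared with 3 cisplatin samples by the quasi-likelihood test of edgeR 4.0.16 in R 4.3.3, with TMM factors (0.982 to 0.989 with iohexol, 1.081 to 1.084 with cisplatin) and filterByExpr (minimum count 10, minimum total 15). Drug and control groups were compared likewise in separate fits, which share the control samples. CPM were scaled by TMM over the 9 samples, and log2 CPM used a prior count of 2. The 3 vancomycin samples entered only 1 alternative fit. The genes named were the 12 protein-coding DEGs per direction with the smallest p among those without overlap and with at least 10 CPM in the higher group, the 5 longest DEGs per direction, and members of 36 gene lists. A gene named by these rules is not reported here. The comparison, the lists and the rules were chosen with earlier results of these data known. On simulated counts for this comparison, 200 of 200 genes changed 4-fold were called, with 1 other gene of 16158. The simulation gave every gene the same dispersion, held no outlying sample and changed only well-counted genes. It therefore checks the code and does not measure the error rate of the DEGs above. Alternatives used DESeq2 1.42.0, limma-voom (limma 3.58.1), other scalings, filters and sample sets. Some older symbols (CTGF, NOV) are those of the table.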

Additional observations from a re-analysis of the deposited data

How the results depend on the processing

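The DEGs numbered 2706 with DESeq2, 2838 with limma-voom, 2814 with RLE factors, 3438 without a filter on low counts (2757 of them shared), 2987 in a fit of all 12 samples and 2874 with the unadjusted p, and between 2805 and 2962 with single samples omitted (1768 to 1910 higher with iohexol, 960 to 1095 higher with cisplatin). Asking for at least 10 counts in every sample left 625 DEGs higher with cisplatin of 1950, by construction fewer genes tested, and dropping the fold threshold gave 9001, of which 4632 were higher with iohexol and 4369 with cisplatin. The share of DEGs higher with iohexol over 300 kb of span was 57.3% with library sizes only and 60.3% to 63.9% with samples left out; by exonic length it was 18.7% over 8 kb. The replicate number as a block gave 2794 DEGs, 2758 shared. The same-numbered samples of the drugs correlated at -0.078, -0.00559 and -0.071 in their deviations from the group means. The labels do not state that the numbers pair the samples, and 3 samples per group are too few to tell. The genes named by the rules and the share over 300 kb kept their direction under these alternatives. In some lists the side with more calls turned: interferon-stimulated genes (5 with iohexol and 3 with cisplatin) to 4 and 5 with total counts alone, YAP and TEAD targets (3 and 2) to 2 and 3 with total counts alone and 10 and 11 without the fold threshold, TGF-beta genes (4 and 3) to 2 and 4 with total counts alone and 3 and 4 without cisplatin replicate 3, replication genes (0 and 1) to 1 and 0 without iohexol replicate 2, and without the fold threshold NF-kB genes (3 and 1) to 5 and 9 and BCL2 family genes (3 and 0) to 8 and 11. Placing the DEGs by the drug that moved gave 20 values under other limits or total counts alone, of which 16 stayed within 1.5 times and 4 did not. For the 34 genes named by the rules, 484 of 505 alternative values kept the call and 21 lost it. List medians beside genes of the same span were added after the data were seen. Of the counts of called list members under these alternatives, 1030 stayed within 1.5 times of those reported and 122 did not, mostly counts of a few genes. Depth limits genes near 1 CPM, where 3 counts stand for about 0.2 CPM.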
